A study of Homo sapiens with 48 samples.

Results

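The early response of human fibroblasts to TGFβ and IL-1β was compared between control cells and cells given a CRISPR knockout guide to GLIS3. The comparison used 12 of the 48 RNA-seq libraries of the series, 3 in each of 4 groups. They were control and GLIS3 CRISPRko fibroblasts without the cytokines (0 h) and after 6 h with them. These are all the libraries that the labels place in the knockout arm at those times, and the libraries were chosen by label alone. The quantity tested was the interaction, the change from 0 to 6 h in GLIS3 CRISPRko minus the change from 0 to 6 h in control, on the log2 scale. A positive interaction means that a gene went up more, or down less, in GLIS3 CRISPRko.

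All 4 groups were made from IL11mNG fibroblasts, a cloned Cas9-expressing line of immortalized human skin fibroblasts with mNeonGreen, a fluorescent protein, knocked in at IL11 as a reporter. Control cells (genotype WT in the labels) carried a lentiviral guide RNA meant to be non-targeting, and GLIS3 CRISPRko cells carried a guide to GLIS3. The cell line field of the labels reads as a GLIS3 knockout for the control libraries too, so groups were taken from the titles. Both were selected bulk populations, so that a library averaged over cells with different edits. TGFβ and IL-1β, each at 10 ng per ml, were added so that all wells were collected together, and the 0 h wells received medium alone. The study's general statement on replication calls its cell culture replicates independent, while the labels number the 3 libraries of a group and do not say how they were cultured, so the p-values measure the spread between these libraries.

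The guides are shown because they define the groups. Letters in capitals are the adjacent NGG motif that Cas9 needs, read from GRCh38.

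GLIS3 guide: ccacatcgaccagcgcaaagGGG
control guide: gcagaccaattacaacacacTGG

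The GLIS3 guide had 1 perfect site next to an NGG motif, at chr9:4117887-4117906 (GRCh38, minus strand), in coding sequence of exon 4 of GLIS3. The control guide also had 1 perfect site next to an NGG motif, at chr12:123325581-123325600 (plus strand), in coding sequence of exon 15 of SBNO1, a helicase gene. SBNO1 was read in every group, at 29 to 32.4 normalized CPM in control at 0 h, 33.8 to 40.3 in control at 6 h, 21.6 to 31.3 in GLIS3 CRISPRko at 0 h and 24.8 to 47.7 in GLIS3 CRISPRko at 6 h. Normalized CPM are counts divided by library sizes that edgeR's TMM method had scaled. Edits at either site were not measured here.

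As background, IL-1β binds its receptor and signals through MYD88, IRAK kinases and TRAF6 to the transcription factors NF-κB and AP-1, which switch on chemokine and cytokine genes within hours. TGFβ binds TGFBR2 and TGFBR1 and signals through SMAD proteins to matrix, contractile and feedback genes. GLIS3 is a zinc finger transcription factor related to the GLI proteins, and IL-11 is a cytokine of the IL-6 family made by inflammation-associated fibroblasts (IAFs).

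The 12 libraries held 2963560 to 6827644 estimated counts, with 11878 to 13568 genes detected. Depth differed by group. The GLIS3 CRISPRko libraries at 6 h held 2963560 to 3479573 counts, and those at 0 h held 5064089 to 6827644. Control libraries held 4659152 to 5661982 at 6 h and 3377399 to 6750532 at 0 h. The part of depth in the interaction was not tested. The leading principal component held 47.9% of the variance and separated 0 h from 6 h. A few libraries stood apart by their composition. The TMM factors were 1.34 in control at 6 h replicate 1, 1.5 in GLIS3 CRISPRko at 0 h replicate 3 and 0.681 in GLIS3 CRISPRko at 6 h replicate 2, against 0.847 to 1.10 in the others. These 3 libraries were left out together where a result could rest on them. All 8 fibroblast markers were tested, with a summed level of 19911 to 28968 TPM in every library. Of 7 epithelial markers only KRT8 and KRT18 passed the filter on low counts (EPCAM, KRT5 and KRT19 were at 0 in all 12 libraries), and of 7 immune markers only CD68 did. Endothelial markers summed to at most 0.686 TPM and melanocyte markers to at most 0.511 TPM.

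GLIS3 itself was measured first. In control cells it stood at 2.03, 1.45 and 2.16 normalized CPM at 0 h and at 6.47, 4.78 and 4.42 at 6 h. In GLIS3 CRISPRko cells it stood at 0.354, 0.144 and 0.395 at 0 h and at 1.37, 1.49 and 1.61 at 6 h. Control and GLIS3 CRISPRko libraries did not overlap at either time, as was so for 17.8% of genes tested at 0 h and 14.9% at 6 h, and within each kind of cell the 6 h libraries all lay above the 0 h libraries. The GLIS3 CRISPRko values at 0 h rest on 1 to 3 counts per library, so control cells held at least 3.54-fold more there (fitted log2 difference -2.55 ± 0.63 SE, adjusted p = 0.0355, edgeR). At 6 h the difference was -1.8 ± 0.50 (adjusted p = 0.0925). In these bulk samples fewer cells with the transcript and less transcript per cell cannot be told apart. GLIS3 rose in control cells by 1.49 ± 0.43 (adjusted p = 0.0126) and in GLIS3 CRISPRko cells by at least 2.81-fold. That bound is uncertain, since the 6 h values in GLIS3 CRISPRko rest on 3 to 5 counts per library. The interaction of GLIS3 was 0.75 ± 0.81 (95% interval -0.89 to 2.39, adjusted p = 0.826). Its fitted size depends on how 1 to 3 counts at 0 h and 3 to 5 counts at 6 h are treated.

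Both kinds of cell responded strongly to TGFβ and IL-1β, and 1 gene met the test for a different response. In control cells 1744 of 10962 genes tested changed by 6 h (15.9%), 1130 up (10.3%) and 614 down (5.6%). In GLIS3 CRISPRko cells 2625 changed (23.9%), 1443 up (13.2%) and 1182 down (10.8%). On limma's log2(TPM + 1) scale, which does not rescale the libraries by TMM, the GLIS3 CRISPRko calls split into 513 up and 2856 down. The control calls on that scale split into 511 up and 300 down. Leaving out the 3 libraries above gave 1634 calls in GLIS3 CRISPRko (1116 up, 518 down) and 1548 in control (1060 up, 488 down). The interaction was called for 1 of 10962 genes (0.00912%).

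Of the 1130 genes that rose in control, 885 also rose in GLIS3 CRISPRko, and of the 614 that fell, 364 also fell. No gene was called in opposite directions. Another 1871 genes were called in 1 kind of cell and not in the other, and for 0 of them was the interaction called. An unadjusted p under 0.05 for the interaction was reached by 519 of them (27.7%). The share was 8.01% among genes called in both and 7.93% among all genes tested. Choosing genes called on 1 side only raises this share by itself. With no called interaction, the calls of these 1871 genes do not show that the response differed. Both sets of log2 changes, which share no library, had a Pearson correlation of 0.757 and a Spearman correlation of 0.644 across the 10962 genes. Genes are not independent replicates, and this is a description. In the plot of both responses the points follow the diagonal.

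**Figure D1:**
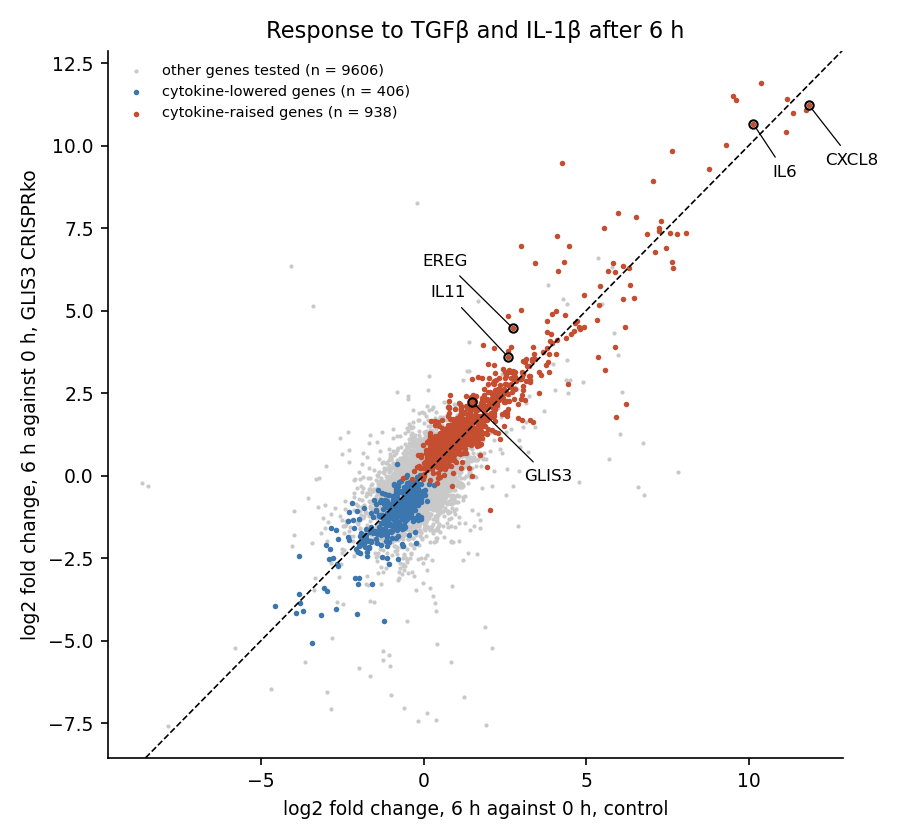
Log2 fold change at 6 h against 0 h in control fibroblasts (x axis) and GLIS3 CRISPRko fibroblasts (y axis), 1 point per gene tested and reported here. Genes that both CRISPRa groups raised (red) or lowered (blue) are marked, the dashed line is equality, and EREG lies above it at 2.75 in control against 4.46 in GLIS3 CRISPRko.

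**Figure D2:**
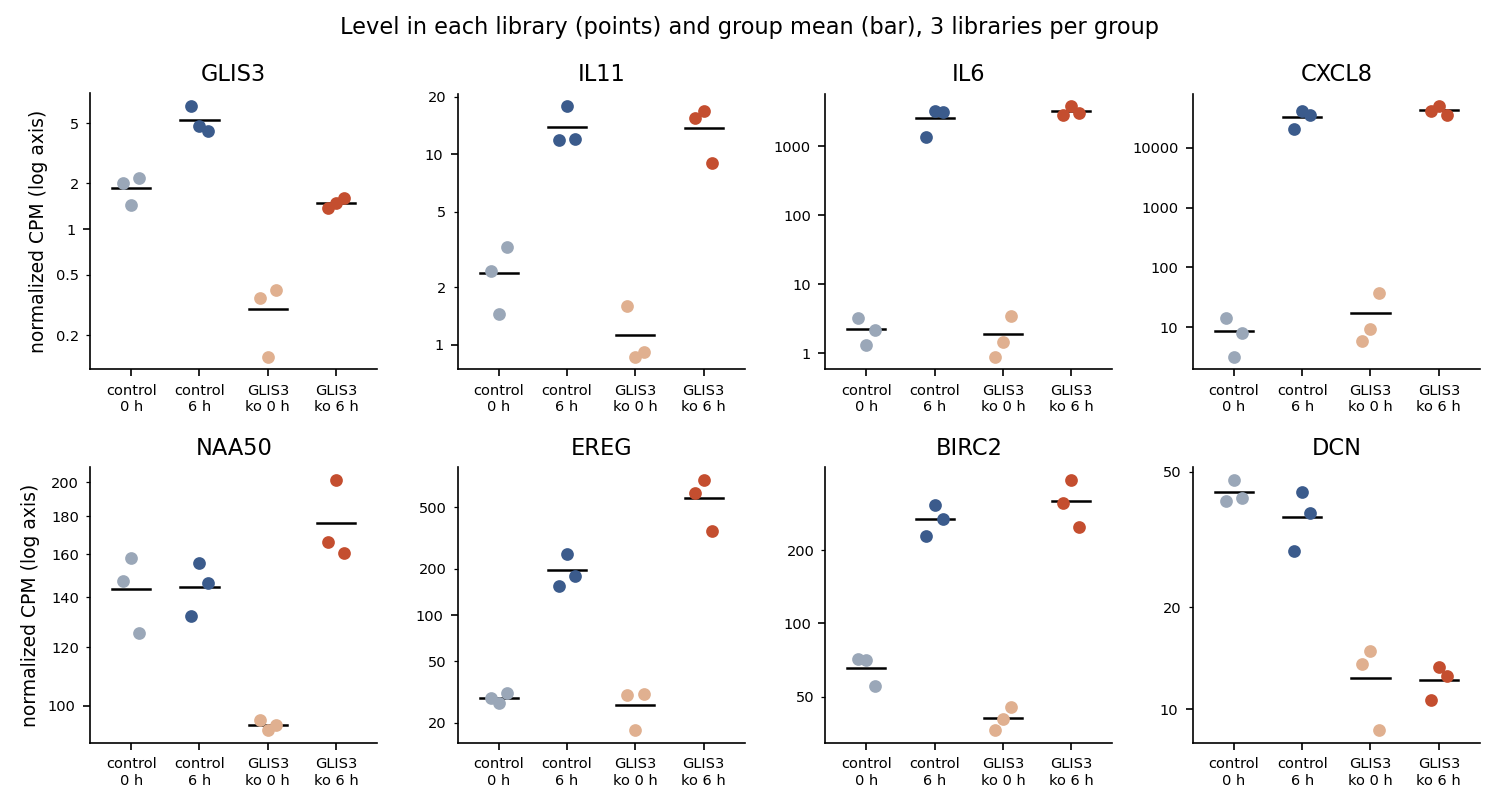
Normalized CPM of 8 genes in each library (points, log axes) with the mean of the 3 libraries of a group (bar). For NAA50 the GLIS3 CRISPRko libraries are below the control libraries at 0 h and above them at 6 h. For DCN they are below at both times, and for IL11 they overlap control at both times.

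The genes described next were among those of lowest p and did not pass the adjustment over all genes. In the positive direction they included EREG, NAA50, C12orf23, NEK7 and ZNF585B, with adjusted p between 0.126 and 0.163. EREG encodes epiregulin, a ligand of the EGF receptor. It was at 29, 26.7 and 31.1 normalized CPM in control and 30.2, 17.9 and 30.5 in GLIS3 CRISPRko at 0 h, and at 155, 249.96 and 179.9 against 617, 759 and 354 at 6 h. The groups overlapped at 0 h and not at 6 h. EREG rose 6.74-fold in control and 22-fold in GLIS3 CRISPRko, with an interaction of 1.70 ± 0.36 (95% interval 0.97 to 2.44, adjusted p = 0.126), and it differed between the cells at 6 h (1.56, adjusted p = 0.00128). Without the 3 libraries that stood apart, EREG differed by 1.16 at 6 h (adjusted p = 0.163, edgeR). Its interaction was 0.49 at 12 h and 0.18 at 24 h, on the same 0 h libraries. With each library left out in turn the EREG interaction was 1.47 to 1.98. Without GLIS3 CRISPRko at 6 h replicate 3, the lowest of its group for EREG, the interaction was called for 4 genes, EREG (1.98) and NEK7 (1.33) among them. Every other single removal gave 1 call. NEK7 is a kinase that takes part in NLRP3 inflammasome assembly.

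NAA50, the catalytic subunit of an N-terminal acetyltransferase, was at 125 to 158 normalized CPM in control at 0 h and 132 to 156 at 6 h. In GLIS3 CRISPRko it was at 92.7 to 95.6 at 0 h and 160.4 to 202 at 6 h. It was thus lower in GLIS3 CRISPRko at 0 h (-0.61, adjusted p = 0.0365) and rose there by 6 h (0.90, adjusted p = 6.44e-06), while its change in control was 0.01 (adjusted p = 0.98), with an interaction of 0.89 (adjusted p = 0.126). In the negative direction the lowest p belonged to SARS2, the mitochondrial seryl-tRNA synthetase, at 8.51 to 9.66 in control at 0 h, 11.5 to 13.5 in control at 6 h, 14 to 17.1 in GLIS3 CRISPRko at 0 h and 5.81 to 8.42 in GLIS3 CRISPRko at 6 h (interaction -1.55, adjusted p = 0.126). PRMT7, ATF6B, COG1, METTL13, UBE4B and APTX followed, between -1.18 and -0.77 (adjusted p 0.249 to 0.293). C15orf38-AP3S2 had -2.57 (adjusted p = 0.266), but it is a read-through of AP3S2 and shares its reads, so this value is uncertain.

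DESeq2, run as an alternative on the same counts, called 41 genes, all positive. They included EREG, NAA50, C12orf23, NEK7 and, of the NF-κB list below, BIRC2. Among all 10962 genes 869 had an unadjusted p under 0.05 in edgeR (7.93%), 442 positive (4.03%) and 427 negative (3.9%). The precision bounds what could be seen. The median SE of the interaction was 0.383, and for 4461 genes (40.7%) the 95% interval lay within -1 to 1, that is, within a 2-fold difference of response either way.

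To describe the cytokine-responsive genes with a choice that did not use these 12 libraries, genes were taken that changed at 6 h in both groups of the CRISPRa arm, whose libraries are separate (17.4% of genes tested were called in 1 group and 28.8% in the other). Of 955 raised genes 940 were tested in the knockout arm, and 712 of them rose in control and 795 in GLIS3 CRISPRko. Their median log2 change was 1.08 in control and 1.24 in GLIS3 CRISPRko, and the median interaction was 0.147, against -0.060 over all genes tested. The interaction was above 0 for 608 of the 940 and below 0 for 332, while it was above 0 for 44.5% of all genes tested. An unadjusted p under 0.05 was reached by 111 positive and 16 negative values of the 940. For 507 (53.9%) the interval lay within -1 to 1. Of the 409 lowered genes 406 were tested, with medians of -0.79 in control, -0.98 in GLIS3 CRISPRko and -0.216 for the interaction (117 above 0, 289 below). Without the 3 libraries the medians of the interaction were 0.112 for raised and -0.036 for lowered genes, against 0.0071 over all genes tested then.

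IL11 and the other IL-6 family genes came first among the lists, as the reporter line was built on IL11. IL11 was at 2.43, 1.45 and 3.24 normalized CPM in control and 1.59, 0.865 and 0.922 in GLIS3 CRISPRko at 0 h, and at 11.9, 17.9 and 12.0 against 15.4, 16.8 and 9.04 at 6 h. The groups overlapped at both times. IL11 rose 6.04-fold in control (log2 2.59, adjusted p = 9.32e-06) and 12.1-fold in GLIS3 CRISPRko (log2 3.6, adjusted p = 1.65e-07). Its interaction was 1.01 ± 0.63 (95% interval -0.28 to 2.3, adjusted p = 0.715), and the cells differed by -0.04 at 6 h (adjusted p = 0.986). An equal response in both kinds of cell is inside that interval. The interaction at 12 and 24 h, on the same 0 h libraries, was 0.02 and 0.96.

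IL6, the founding cytokine of the family, was at 3.24, 1.29 and 2.16 in control and 0.884, 1.44 and 3.42 in GLIS3 CRISPRko at 0 h, and at 1372, 3286 and 3157 against 2839.9, 3832 and 3087 at 6 h. Its lowest value at 6 h was in control replicate 1, which is 1 of the 3 libraries above. It rose by 10.14 in control and 10.65 in GLIS3 CRISPRko on the log2 scale (interaction 0.51 ± 0.57). LIF rose by 11.1 and 10.4, CLCF1 by 2.60 and 2.74, and the receptor chain OSMR by 1.2 and 1.42. IL6ST, the shared signalling receptor gp130, was at 57.0 to 63.2 in control at 0 h, 39.8 to 45.4 in GLIS3 CRISPRko at 0 h, and 83.2 to 114 against 96.5 to 126 at 6 h. Its interaction was 0.75 ± 0.22 (unadjusted p = 0.00183, adjusted p = 0.302). Of the 11 genes listed 7 were tested, 6 rose in each kind of cell, and the median interaction was 0.226 (0.627 without the 3 libraries). For this and the following lists, the share of all genes tested that rose was 10.3% in control and 13.2% in GLIS3 CRISPRko.

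All 6 neutrophil-attracting CXC chemokines rose in both kinds of cell, with a median interaction of -0.333 that turned to 0.123 without the 3 libraries. CXCL8 (IL8 in the annotation of the files) was at 14.3, 3.22 and 8.10 in control and 5.83, 9.38 and 37.1 in GLIS3 CRISPRko at 0 h, and at 20634, 40646 and 35666 against 41655, 49663 and 34888 at 6 h. The libraries overlapped at both times, and the interaction was -0.64 ± 0.72 (95% interval -2.10 to 0.81). It turned to 0.20 without the 3 libraries. Without GLIS3 CRISPRko at 0 h replicate 3 alone, which held the 37.1, it was 0.58. CXCL1 had -0.67 and CXCL3 1.52 (unadjusted p = 0.364 and 0.0881). CXCL2 was at 116 to 245 in control and 356 to 692 in GLIS3 CRISPRko at 6 h (difference 1.43, adjusted p = 0.00527), and its interaction of 1.99 rests on 0 h values of at most 0.483.

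Of the CC chemokines and the colony-stimulating factor list, 5 of 10 and 6 of 10 genes were tested. CCL2, a monocyte attractant, rose by 8.07 in control and 7.35 in GLIS3 CRISPRko (interaction -0.72 ± 0.43, unadjusted p = 0.105). CSF3, the granulocyte colony-stimulating factor, was at or near 0 in all 0 h libraries. It rose at least 79.5-fold in control and at least 123.2-fold in GLIS3 CRISPRko. These bounds differ with the floors at 0 h, 0.810 and 0.530 normalized CPM. The CSF3 means at 6 h were 64.4 and 65.3 (difference 0.03, adjusted p = 0.978, edgeR). CSF2, which encodes GM-CSF, rose at least 827-fold in control. IL1B, which encodes one of the added cytokines, rose by 11.2 and 11.4 (interaction 0.25 ± 0.74). The median interaction was 0.045 for the CC chemokines and 0.352 for the colony-stimulating factor list, and 0.253 and 0.789 without the 3 libraries.

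The promoters of 3 of these genes are shown to place the responders beside the factors named above. Each is the 250 bases before the RefSeq start of the gene (GRCh38.p14), and capitals mark every match to an NF-κB type motif, GGNNTTTCC, or an AP-1 motif, TGANTCA, on either strand. They are IL6 at chr7:22726950-22727199 (plus strand), CXCL8 at chr4:73740319-73740568 (plus strand) and IL11 at chr19:55370464-55370713 (minus strand).

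IL6: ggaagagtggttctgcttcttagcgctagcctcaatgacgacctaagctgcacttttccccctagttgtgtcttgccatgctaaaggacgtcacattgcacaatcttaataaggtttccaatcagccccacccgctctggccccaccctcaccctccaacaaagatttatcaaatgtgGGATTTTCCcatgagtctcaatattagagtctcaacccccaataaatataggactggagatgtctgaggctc
CXCL8: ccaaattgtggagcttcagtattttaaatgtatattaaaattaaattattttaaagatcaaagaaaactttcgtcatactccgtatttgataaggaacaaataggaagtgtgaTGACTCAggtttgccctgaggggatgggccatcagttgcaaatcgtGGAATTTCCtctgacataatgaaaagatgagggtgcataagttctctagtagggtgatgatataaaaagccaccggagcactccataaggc
IL11: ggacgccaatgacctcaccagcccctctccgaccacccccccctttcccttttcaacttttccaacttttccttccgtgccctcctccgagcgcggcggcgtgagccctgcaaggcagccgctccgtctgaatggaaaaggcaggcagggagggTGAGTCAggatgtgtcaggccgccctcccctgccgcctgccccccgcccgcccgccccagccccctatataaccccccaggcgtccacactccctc

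IL6 had the NF-κB type motif 63 bases before the start, CXCL8 had it 82 bases and the AP-1 motif 130 bases before, and IL11 had the AP-1 motif 89 bases before. The same window of EREG held neither. The NF-κB type motif was found in 5.48% of all 35116 promoters, in 6.26% of those of genes tested, in 11.2% of those of cytokine-raised genes and in 5.88% of those of cytokine-lowered genes. For the AP-1 motif the shares were 6.57%, 4.14%, 7.31% and 3.1%. A match is a description of letters and no evidence of binding.

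NF-κB subunits, inhibitors and targets rose as a list in both kinds of cell. In control 18 of 18 genes tested were called and in GLIS3 CRISPRko 17, where 10.3% and 13.2% of all genes tested rose. The median changes were 3.19 and 3.33, and the median interaction was 0.258 (0.050 without the 3 libraries), with 12 values above 0 and 6 below. NFKBIA, the feedback inhibitor IκBα, rose by 3.39 and 3.70, and TNFAIP3, the deubiquitinase A20, rose by 5.67 and 6.19. BIRC2 and BIRC3 encode the apoptosis inhibitors cIAP1 and cIAP2. BIRC2 was at 71.7, 70.7 and 55.1 in control and 36.4, 40.4 and 45.4 in GLIS3 CRISPRko at 0 h, and at 228, 305 and 269 against 313, 390.0 and 249.5 at 6 h. The cells did not overlap at 0 h and did at 6 h (interaction 0.94 ± 0.23, unadjusted p = 0.00025, adjusted p = 0.188). BIRC3 had 0.92 (unadjusted p = 0.00878). REL, an NF-κB subunit, had -1.6 (unadjusted p = 0.0100) on levels of 0.810 to 14.4.

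Upstream of NF-κB, 10 of 13 IL-1 receptor and signalling genes were tested, with a median interaction of -0.217 (0.039 without the 3 libraries). TRAF6, the ubiquitin ligase of the pathway, was at 6.92 to 10.4 in control and 13.7 to 15 in GLIS3 CRISPRko at 0 h, and at 18.2 to 23.4 against 11.4 to 18.9 at 6 h. It rose in control (1.15, adjusted p = 0.000241), was 0.12 in GLIS3 CRISPRko (adjusted p = 0.735), and had an interaction of -1.03 ± 0.32 (unadjusted p = 0.00275, adjusted p = 0.341). IRAK2 rose by 4.80 and 4.44, while MYD88, at 0.31 and -0.04, did not pass the test. Of the AP-1 factors, FOSL1 rose by 1.33 and 1.28 and JUNB by 2.35 and 2.34 (interactions -0.04 and -0.01), and the median interaction of the 6 tested was -0.026 (-0.224 without the 3 libraries).

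Among immediate-early and MAPK feedback genes 10 of 13 tested rose in each kind of cell, with a median interaction of -0.164 (-0.170 without the 3 libraries). DUSP6, a phosphatase that acts on ERK, was at 14.6 to 19.4 in control and 27.7 to 41.9 in GLIS3 CRISPRko at 0 h, and at 62.2 to 81.0 against 86.2 to 91.2 at 6 h. It was higher in GLIS3 CRISPRko at 0 h (1.02, adjusted p = 0.0345), 0.28 apart at 6 h (adjusted p = 0.634), and had an interaction of -0.73 (unadjusted p = 0.0190).

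TGFβ feedback genes moved in both directions in both kinds of cell. Of 16 tested, 7 rose and 3 fell in control and the same numbers did in GLIS3 CRISPRko. Over all genes tested 10.3% rose and 5.6% fell in control, and 13.2% rose and 10.8% fell in GLIS3 CRISPRko. The median interaction of the list was 0.239 (0.205 without the 3 libraries). SMAD7, the inhibitory SMAD, rose by 3.05 and 3.46, and SKIL rose by 1.46 and 2.06. ID1, ID2 and ID3, which encode inhibitors of helix-loop-helix factors, fell in both. ID1 went from 275 to 354 to 16.3 to 24.4 in control and from 244 to 315 to 11 to 20.7 in GLIS3 CRISPRko (interaction -0.25 ± 0.30). With CITED2, PCDH18 and MAB21L1 it made up the largest falls in control among genes of at least 10 normalized CPM on average, and CITED2, a transcriptional coregulator, fell by 4.56 in control and 3.95 in GLIS3 CRISPRko. PMEPA1, a SMAD inhibitor, had 2.01 (unadjusted p = 0.0178) on 0 h levels of 0 to 1.35.

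Of 17 matrix genes tested 2 rose in control and 6 in GLIS3 CRISPRko, where 10.3% and 13.2% of all genes tested rose, and the interaction was above 0 for 14. TNC, a matrix glycoprotein, was at 546 to 620.2 in control and 426 to 473 in GLIS3 CRISPRko at 0 h, and at 1148 to 1953 against 1189.7 to 3122 at 6 h (interaction 0.89 ± 0.41, unadjusted p = 0.0386). Of 13 contractile genes 0 rose in control and 1 in GLIS3 CRISPRko, and 12 had an interaction above 0. Of all genes tested 44.5% had an interaction above 0, and the genes of a list share the same libraries. These signs rest on few libraries. The median interaction was 0.357 for matrix and 0.435 for contractile genes, and -0.035 and -0.138 without the 3 libraries. ACTA2, smooth muscle actin, was at 1138, 2961 and 1485 in GLIS3 CRISPRko at 6 h, with the highest value in replicate 2, and its reads can be shared with the near-identical ACTG2 and ACTC1. Of 9 metalloproteinases and inhibitors 6 rose in control and 7 in GLIS3 CRISPRko (median interaction 0.373, and 0.115 without the 3 libraries). MMP1, an interstitial collagenase, was at 697 to 1585 in control and 3090.1 to 4023 in GLIS3 CRISPRko at 6 h (difference 1.45, adjusted p = 0.0301). It was also at 317 to 383 against 543 to 884 at 0 h, and the interaction was 0.37 ± 0.44.

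The remaining lists had no called interaction. The median was 0.059 for 12 TEAD factors, coactivators and targets, -0.487 for 5 GLIS, GLI and Hedgehog genes, 0.226 for 7 prostaglandin genes, -0.183 for 15 interferon-stimulated genes and 0.269 for 22 IAF markers of the Xenium panel. Without the 3 libraries the medians were 0.045, -0.162, 0.315, -0.141 and 0.025, so that the value of the IAF markers rests on those libraries. The last list came from the study itself and is not independent of its results. PTGS2, the inducible cyclooxygenase, rose by 4.09 and 4.12. CCN2 (CTGF in the files), a matricellular target of TEAD and TGFβ, rose by 1.59 and 2.26. FBLN1, an IAF marker that encodes fibulin-1, fell in control (-1.56, adjusted p = 0.000844) and was -0.48 in GLIS3 CRISPRko (adjusted p = 0.305), with an interaction of 1.08 (unadjusted p = 0.0253).

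**Figure D3:**
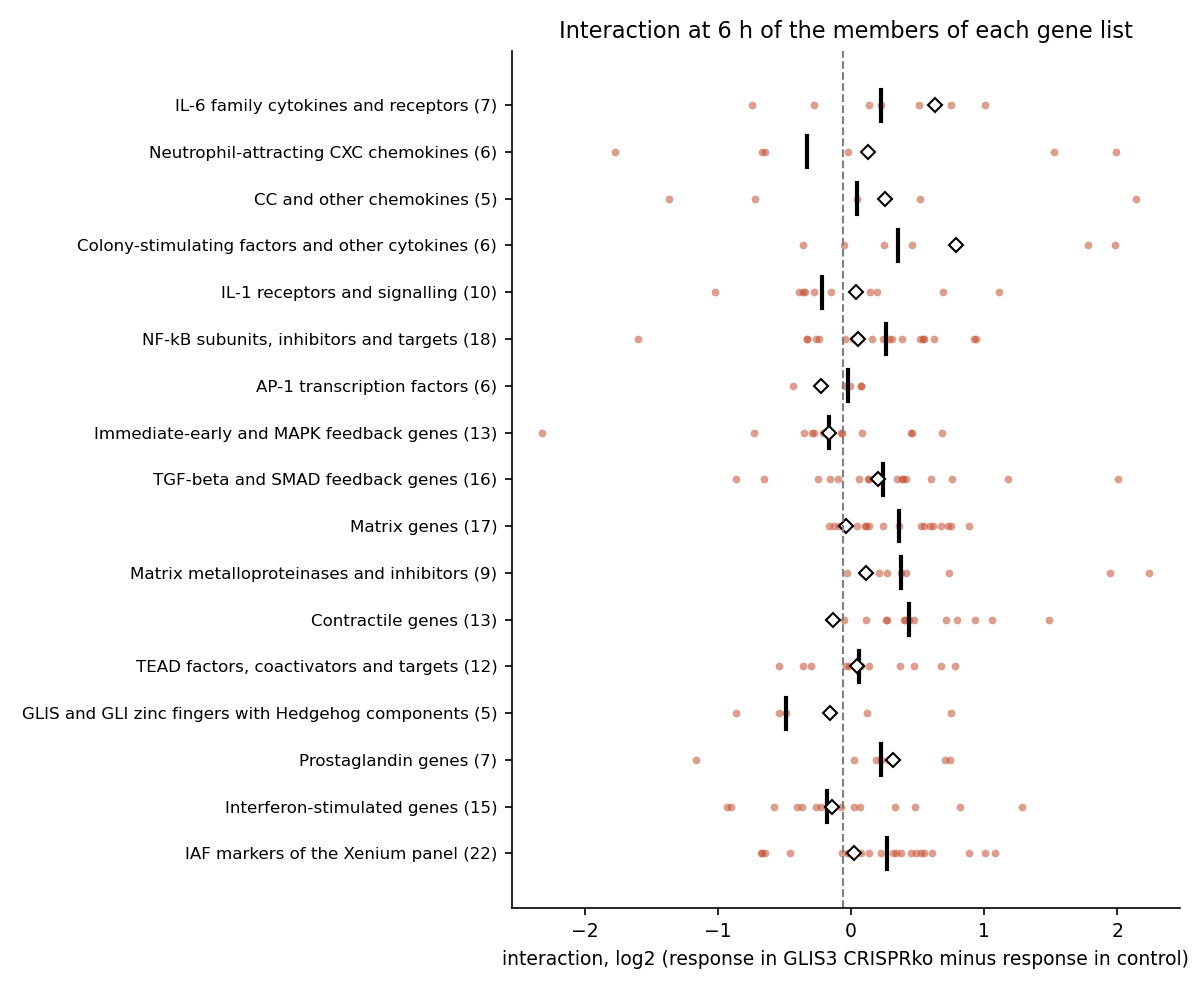
Interaction at 6 h (log2, x axis) of each gene tested (points) in the gene lists, with the median of each list (bar), that median without the 3 libraries that stood apart (open diamond), the number of genes tested in parentheses and the median of all genes as a dashed line. List medians lie between -0.487 and 0.435, and points of every larger list fall on both sides of 0.

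The cells also differed from each other at a single time, with and without the cytokines. At 0 h, 33 genes differed between GLIS3 CRISPRko and control (0.301%), 19 higher (0.173%) and 14 lower (0.128%) in GLIS3 CRISPRko. At 6 h, 35 differed (0.319%), 30 higher (0.274%) and 5 lower (0.0456%). The 9 genes called at both times had the same sign at both, and the 2 times share no library. Of the 33 genes, 30 had the same sign at 6 h (21 with an unadjusted p under 0.05), and of the 35, 29 had the same sign at 0 h (19 with an unadjusted p under 0.05).

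DCN encodes decorin, a small proteoglycan that binds collagen and TGFβ. It was at 41.2, 47.5 and 41.9 in control and 13.6, 14.9 and 8.69 in GLIS3 CRISPRko at 0 h, and at 29.2, 43.6 and 37.8 against 10.6, 13.4 and 12.6 at 6 h. All 6 GLIS3 CRISPRko libraries lay below all 6 control libraries (-1.82 at 0 h, adjusted p = 6.05e-05; -1.6 at 6 h, adjusted p = 0.00148). SFRP1, a secreted Wnt antagonist, was lower by the same pattern (-1.68 and -1.49). TGFBI, a TGFβ-induced matrix protein, was at 222 to 493 in control and 133 to 152 in GLIS3 CRISPRko at 0 h, and at 551 to 621 against 229.8 to 324 at 6 h. It rose in both kinds of cell (0.77 and 0.87) from these different levels, with an interaction of 0.10 ± 0.33. MOXD1 (0.96 and 1.31) and the serpin SERPINB7 (0.91 and 1.29) were higher in GLIS3 CRISPRko at both times. HERPUD1, which encodes a protein of endoplasmic reticulum stress, was called at 6 h only. It was at 93.6, 93.7 and 84.8 in control and 107, 119 and 109.9 in GLIS3 CRISPRko at 0 h, and at 216, 222 and 244 against 378, 517 and 509.6 at 6 h. The cells did not overlap at either time, and the difference was 1.04 at 6 h.

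Which genes passed depended on the libraries. Without the 3 libraries above, 4 genes were called at 6 h, DCN, HERPUD1, MOXD1 and SERPINB7, and 72 at 0 h. All 33 and all 35 genes kept their sign with an unadjusted p under 0.05. They had been called on data that include these remaining libraries, at a stricter threshold, so this is no separate test of them. At 6 h, 5 genes were called without control replicate 1, 15 without control replicate 3, and 21, 9 and 15 without GLIS3 CRISPRko replicates 1, 2 and 3. At 0 h, 2 and 12 were called without control replicates 1 and 2, and 6, 5 and 52 without GLIS3 CRISPRko replicates 1, 2 and 3.

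**Figure D4:**
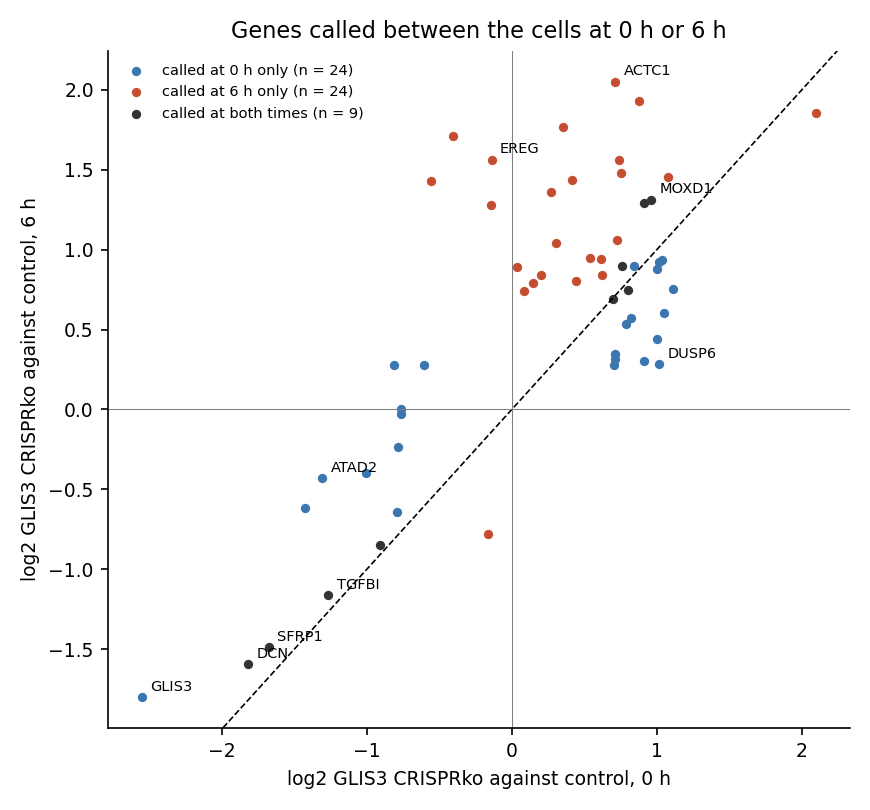
Log2 difference of GLIS3 CRISPRko against control at 0 h (x axis) and at 6 h (y axis) for the genes called at 0 h only (blue), 6 h only (red) or both (black) and reported here. Genes called at both times lie near the dashed line of equality, DCN at -1.82 and -1.6 among them, while EREG lies at -0.14 and 1.56.

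GC content of the transcripts moved with the interaction. Across the 10733 genes with a value (97.9%), the Spearman correlation of the interaction with GC content was -0.264. It was 0.377 for the difference between the cells at 0 h, 0.006 for that at 6 h, 0.048 for the response in control and -0.152 for the response in GLIS3 CRISPRko. In the 2684 genes with the lowest GC content (30.7 to 41.4%) the median interaction was 0.141 and 270 positive against 39 negative values had an unadjusted p under 0.05. In the 2683 with the highest (55.6 to 74.4%) the median was -0.190, with 24 positive and 151 negative values. Among cytokine-raised genes the median went from 0.332 to 0.019 between the same classes. Within single libraries the correlation of the level with GC content, relative to the mean of the 24 libraries fitted together, was 0.180, 0.234 and 0.016 in GLIS3 CRISPRko at 0 h and -0.16, -0.255 and 0.033 in control at 0 h.

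EREG has a GC content of 36.1%, NAA50 of 38.7% and SARS2 of 61.4%. Of the 41 genes that DESeq2 called, 36 were in the class of lowest GC content, and their median GC content was 37.7%, against 47.4% over all genes tested. With GC content as an offset in each library, an alternative chosen after seeing the data, the correlation was -0.00967 and 1 gene was called for the interaction. All 41 genes of DESeq2 then kept a positive value with an unadjusted p under 0.05. They had been chosen on the same counts at a stricter threshold, so this is no separate test of them. The part of GC content in their values was not tested. With the same offsets 18 genes differed between the cells at 0 h and 64 at 6 h, against 33 and 35 without them, and 1814 genes changed in control and 2408 in GLIS3 CRISPRko. The correlations with GC content were then between -0.0139 and 0.0133 for these 4 comparisons.

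**Figure D5:**
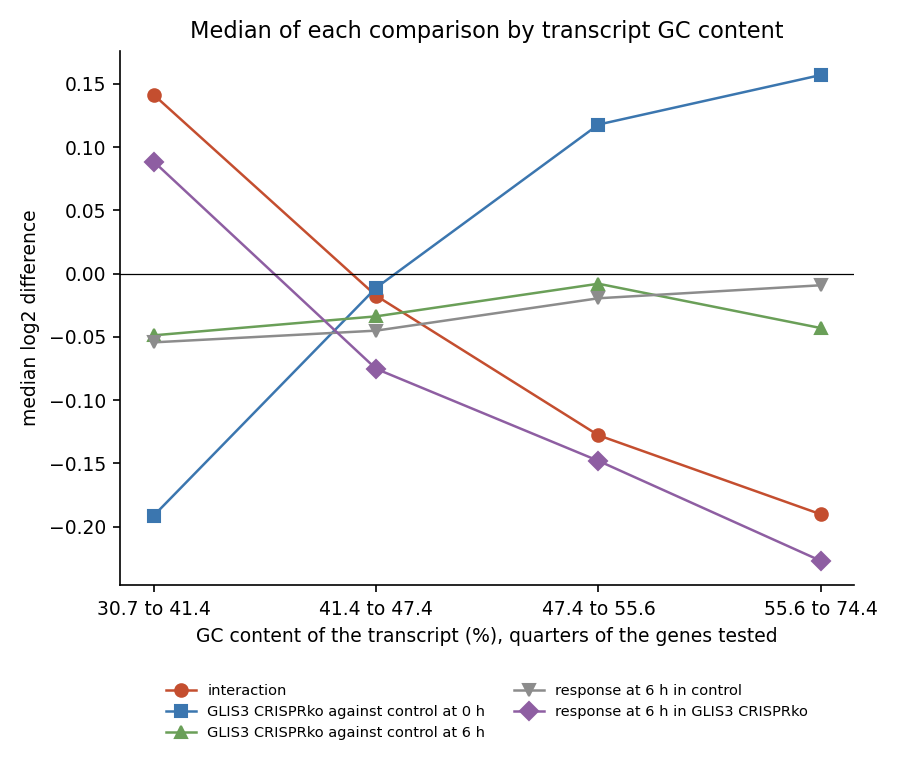
Median log2 difference of 5 comparisons (y axis) in 4 equal classes of genes by GC content of the transcript (x axis, %). The interaction falls from 0.141 to -0.190 and the difference between the cells at 0 h goes from -0.191 to 0.157, while the difference at 6 h stays between -0.049 and -0.008.

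At later times no gene was called for the interaction. At 12 h 0 genes passed in edgeR and 709 had an unadjusted p under 0.05, and at 24 h 0 passed and 616 did. These comparisons use the same 0 h libraries as the one at 6 h. In the CRISPRa arm, where the title of a library and its description give contrary roles to the 2 groups, 10 of 10980 genes (0.0911%) had an interaction at 6 h between VP64_A and VP64_Ctrl, as the descriptions call them. They were IL11 (2.19), ID2 (1.96), MMP3 (1.62), SPRY4 (1.51), PLAU (1.46), PODXL (1.31), TGFBI (-1.26), PLK2 (-1.28), ANTXR2 (-1.29) and TXNRD1 (-1.34), with adjusted p of 0.0189 to 0.0475. Because the labels conflict, these signs give no direction for GLIS3.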

How the data were processed

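Messenger RNA of IL11mNG fibroblasts was sequenced on a NextSeq 500. Per the labels and the study's methods, the authors trimmed the reads, removed ribosomal reads, aligned with STAR to GRCh38 and deposited Salmon's estimated counts per gene and TPM. Tool versions, annotation and the strand setting are not given in the sources used here. Of the estimated counts 6.38% were not whole and all were rounded.

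Estimated counts were tested with edgeR 4.0.16 (R 4.3.3): TMM scaling, filterByExpr with a minimum count of 10 and a minimum total of 15, and a quasi-likelihood F test over 24 CRISPRko libraries in 8 groups, which share 1 estimate of the spread. Of 29744 genes deposited, 10962 were tested. The call was a Benjamini-Hochberg adjusted p under 0.05, and intervals are 95%. The CRISPRa arm was fitted separately. No duplicate libraries were found among 12 replicate pairs (chi-square per degree of freedom 6.06 to 29.3). A group at or under 3 counts in every library was taken as at the floor. Scripts were tested on simulated data.

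The comparison, members and gene lists were chosen with earlier results of these data known. Named genes were GLIS3, IL11, every called gene, the 8 lowest p in each direction, the 8 largest rises and 4 largest falls in control with a mean of at least 10 normalized CPM, and for each list its lowest p and highest level. Other genes in the text were chosen after their values were seen. Of the genes the rule chose, 3 are not reported here. Alternatives were DESeq2 1.42.0, its size factors, no filter, the 12 libraries alone, limma 3.58.1 on TPM with a pseudocount of 1 or of 0.1 before the log2, the replicate number as a block, and each library left out. GC offsets (loess, span 0.5) and the removal of 3 libraries were chosen after seeing the data. GC content and gene positions came from GENCODE, and promoters from RefSeq (GRCh38.p14).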

Additional observations from a re-analysis of the deposited data

Results flagged for a closer look

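In the knockout arm the change over 6 h differed between GLIS3 CRISPRko and control for 1 gene by the test of the difference itself (edgeR). In the CRISPRa arm 10 genes had a response at 6 h that differed between VP64_A and VP64_Ctrl, by the test of the difference itself. IL11 had the lowest p of them, with an interaction of 2.19 ± 0.37 (adjusted p = 0.0189), against 1.01 ± 0.63 in the knockout arm. The arms were not tested against each other, and in the CRISPRa arm the title of a library and its description give contrary roles to the groups.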

How the results depend on the processing

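The interaction at 6 h was called for 1 gene in the report, 41 with DESeq2, 63 with no filter on low counts, 0 with limma on log2(TPM + 1), and 1 to 4 with a library left out. The genes added without the filter include near-identical copies. On the TPM scales the median interaction of all genes was -0.337 and -0.412. Calls in control were 811 and 776 with limma on log2(TPM + 1) and log2(TPM + 0.1), and 1367 to 1773 with a library left out. Calls in GLIS3 CRISPRko were 1634 without the 3 libraries that stood apart, against 1548 in control, and 1789 to 2682 with 1 left out.

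Between the cells at 0 h, 113 genes were called with DESeq2, 137 with no filter, 11 and 12 with limma, 18 with GC offsets, 72 without the 3 libraries, 107 at an adjusted p under 0.1, and 2 to 52 with a library left out. At 6 h the counts were 169, 142, 5 and 6, 64, 4, 104, and 5 to 42. The CRISPRa interaction was called for 47 genes with DESeq2. The median interaction of cytokine-raised genes was 0.175 with DESeq2 size factors, 0.208 with GC offsets, 0.112 without the 3 libraries, 0.178 for genes of at least 1 on the log2 scale and 0.125 to 0.193 with a library left out. That of lowered genes was -0.151, -0.036 and -0.282 to -0.120 with GC offsets, without the 3 libraries and with 1 left out. Over all genes tested the median was -0.027 with DESeq2 size factors, 0.016 with GC offsets and 0.0071 without the 3 libraries. With limma on log2(TPM + 1) the sign for raised genes turned. The median there was -0.204 for raised genes, -0.441 for lowered genes and -0.337 for all genes tested.

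Among named genes the sign turned with limma for GLIS3 (-0.52 and -0.47), GLIS2 (-0.13 and -0.20), KRT18 (-0.098 and -0.098), IL1B (-0.0089), CSF3 (-0.21) and PMEPA1 (-0.051). With GC offsets it turned for FOSL1 (0.17) and IFI6 (0.0086). Without the 3 libraries it turned for IL8 (0.20), CSF2 (0.80), LIF (1.10), FN1 (-0.035), TIMP1 (-0.107), TAGLN (-0.138), GLIS2 (-0.127), COL3A1 (-0.010), VIM (-0.052) and KRT18 (-0.371). With a library left out, ranges crossed 0 for IL8 (-1.33 to 0.58), CSF2 (-1.37 to 1.15), IL1B (-0.30 to 1.17), LIF (-1.45 to 1.57), MAB21L1 (-0.44 to 0.29), FOSL1 (-0.32 to 0.32), GLIS2 (-0.12 to 0.36), IFI6 (-0.37 to 0.15) and KRT18 (-0.044 to 0.35). None of these values was called in the report, and the cause of the changes was not tested.

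With the replicate number as a block, 1 gene had a called interaction, and no count moved by over 1.5 times (36 at 0 h, 34 at 6 h). The numbers did not pair the libraries, since 2 of 18 correlations of deviations were over 0.1 and 4 of 12 libraries correlated best with their own number. Few counts per library were read at 0 h for GLIS3 (8 to 15 in control, 1 to 3 in GLIS3 CRISPRko) and IL11 (9 to 18, 6 to 9). The same held for CXCL3 (2 to 4, 1 to 4), while CXCL8 had 20 to 106 and 33 to 282. The part of depth in these values was not tested.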
